A study of Sus scrofa with 9 samples.

Results

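Interleukins and their receptors were examined for DNA hydroxymethylation in mesenchymal stem/stromal cells (MSCs) from pig fat. The members were the genes whose symbol begins with IL and a number, and 76 of them were found among 18933 genes in the table of Obese- and Lean-MSCs and 76 among 18992 genes in the table of vitamin-C-treated and untreated Obese-MSCs. They were divided into 34 genes for secreted ligands, 40 genes for receptor chains, and 2 others, IL18BP for the binding protein that captures interleukin-18 and IL4I1 for an amino acid oxidase induced by interleukin-4. The swine data comprised 9 hMeDIP-seq libraries, in which an antibody pulls down DNA fragments carrying 5-hydroxymethylcytosine (5hmC) for sequencing. Lean-MSCs (replicates 7, 8 and 9) came from female domestic pigs given standard chow, and Obese-MSCs (replicates 1, 2 and 3) from pigs given a high-fat/high-fructose diet for 16 weeks. All pigs were 3 months old when the diets began, and the cells were isolated from subcutaneous abdominal fat. Vitamin-C-treated Obese-MSCs (replicates 4, 5 and 6) were exposed to vitamin-C at 50 µg/mL for 48 h in culture. According to the paper, the growth medium itself contains a smaller amount of vitamin-C, so untreated cultures were not free of it. It adds that the effect of vitamin-C might therefore be underestimated. The cells had been expanded in culture before DNA was taken, so the libraries describe cultured cells and not fat tissue. The paper describes Obese-MSCs carried through a further passage either without or with vitamin-C, so treated and untreated cultures may share animals. The labels do not say which cultures share an animal, and the main tests took the groups as unpaired. P-values therefore measure the spread between these libraries.

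Interleukins are small secreted proteins through which leukocytes and stromal cells signal to each other. Most act by drawing together receptor chains on the cell surface, often a private chain for the ligand and a common chain shared by several ligands, and these chains start either JAK and STAT signalling or, for the interleukin-1 and interleukin-17 families, signalling towards NF-κB. MSCs release and respond to several of them, interleukin-6 being the best known. 5hmC arises when TET enzymes oxidise 5-methylcytosine, vitamin-C is a cofactor of these enzymes, and the mark is studied as a companion of gene regulation without being a measure of RNA.

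Values are normalized counts of 5hmC reads over the exons of a gene, as deposited. They are not divided by gene length, so a level may be set beside that of the same gene in another library of its table but not beside another gene's. Library totals ranged from 494566 to 522269 in the first table and from 547242 to 593846 in the second, and the interleukin genes held 0.552% to 0.614% of them. In Lean replicate 8 and treated replicate 4, all values from 0.3 to 60 lay within 0.05 of a step from whole multiples of steps of 0.993 and 1.01, so that 1 normalized count would be close to 1 read there. Counts behind single genes were thus small. Of the 34 ligand genes 19 had a mean under 10 normalized counts in the first table, against 8 of the 40 receptor genes.

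The ligand genes were first compared with each other per kb of gene span, a scale that includes introns and is therefore only approximate. Among the 21 ligand genes with a span under 8 kb, 5hmC was concentrated on few genes. IL6, which encodes the cytokine of the acute phase response, had 25.9 ± 3.40 normalized counts per kb in Lean-MSCs (SD, n = 3). IL10, for the anti-inflammatory interleukin-10, had 16.7 ± 3.39 per kb, and IL11, for an interleukin-6 relative, had 10.7 ± 5.06. IL29, for an interferon of the lambda type, had 11.5 ± 5.46 on a span of 0.576 kb, which rested on only 4.63, 4.96 and 10.2 normalized counts. IL6 lay above the others in every Lean library. IL10 lay above IL11 in each of them, although their SDs overlapped. The place of IL29 was not resolved, since it lay above IL10 in Lean replicate 9 only and below IL11 in Lean replicate 7 only. At the other end, 15 of the 21 genes had under 3 per kb. IL2 and IL4, the T-cell growth factor and the inducer of type 2 responses, had 0.143 ± 0.120 and 0.141 ± 0.145 per kb. IL6 also had the highest mean in Obese-MSCs, 37.2 ± 14.98 per kb, where IL17F and IL4 had the lowest, 0.121 ± 0.109 and 0.152 ± 0.161.

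**Figure D1:**
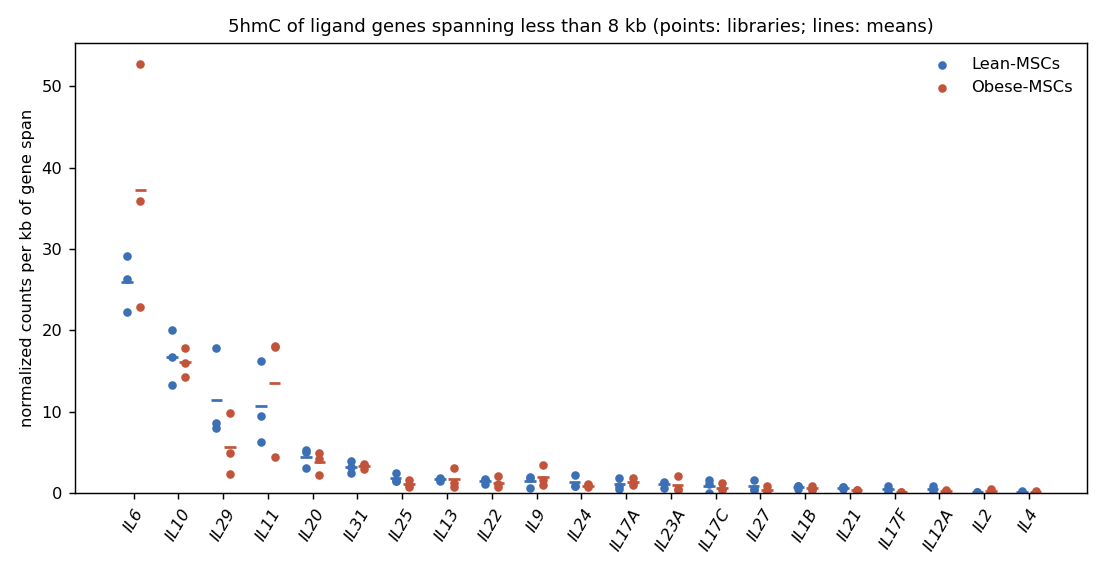
Normalized counts of 5hmC per kb of gene span (vertical axis) for the 21 ligand genes with a span under 8 kb, ordered by the mean of Lean-MSCs; points are libraries and short lines are means of 3. IL6 lies highest in both groups, at means of 25.9 and 37.2 per kb, and 15 genes lie under 3 per kb in Lean-MSCs.

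The pair of genes for interleukin-1, the early alarm cytokine, lie 41.2 kb apart on chromosome 3 and differed widely in level. IL1A had 195, 158 and 251 normalized counts in Lean-MSCs, or 15.1 ± 3.50 per kb of span. IL1B had 6.73, 5.96 and 4.13, or 0.801 ± 0.191 per kb. The pig has a near-identical copy of the latter, IL1B2, so that reads of both copies may have been lost or divided between them, and the value of IL1B is uncertain.

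Whether obesity was accompanied by a different 5hmC level at interleukin genes was asked by comparing Obese- with Lean-MSCs. By the study's criteria, an unadjusted p-value of 0.05 or less in a two-sided test with equal variances and a ratio of means of at least 1.4 or at most 0.7, 1 of the 76 genes was called, the receptor gene IL23R, which was low in Obese-MSCs. Over all 18933 genes the criteria called 4.50%, which were 2.07% as high and 2.43% as low. These were 391 and 461 genes. The paper reports more high and more low genes among as many genes, so its calls were not fully reproduced here. It lists IL23R among genes with low 5hmC in both swine and human Obese-MSCs. No ligand gene met the criteria as run here, and no member was called high. In the limma fit over 15146 genes, 68 interleukin genes were tested and 0 passed after adjustment at 0.05, as did 0 of all genes. Before adjustment 2 of them passed, IL23R and IL10RA, against 6.81% of all genes.

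The median of each class lay close to 0. Genes with a mean of 3 normalized counts or less in both groups were given no ratio, which left 30 ligand and 39 receptor genes. The median log2 ratio of Obese- to Lean-MSCs was -0.03 for ligand genes and -0.02 for receptor genes, beside 0.01 for all genes. Without each library in turn these medians ranged from -0.06 to 0.07 for ligand and from -0.08 to 0.06 for receptor genes, so neither sign was stable. Of the ligand genes 13 lay above 0 and 17 below, and of the receptor genes 18 lay above and 21 below. A ratio past 1.4 or 0.7, whatever its p-value, was seen in 16 of the 71 members with a ratio, or 22.5%, against 24.9% of all genes. The 95% interval of the limma difference had a median width to either side of 0.860 for ligand and 0.619 for receptor genes on the log2 scale, so differences smaller than 1.82-fold and 1.54-fold were mostly within the error.

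**Figure D2:**
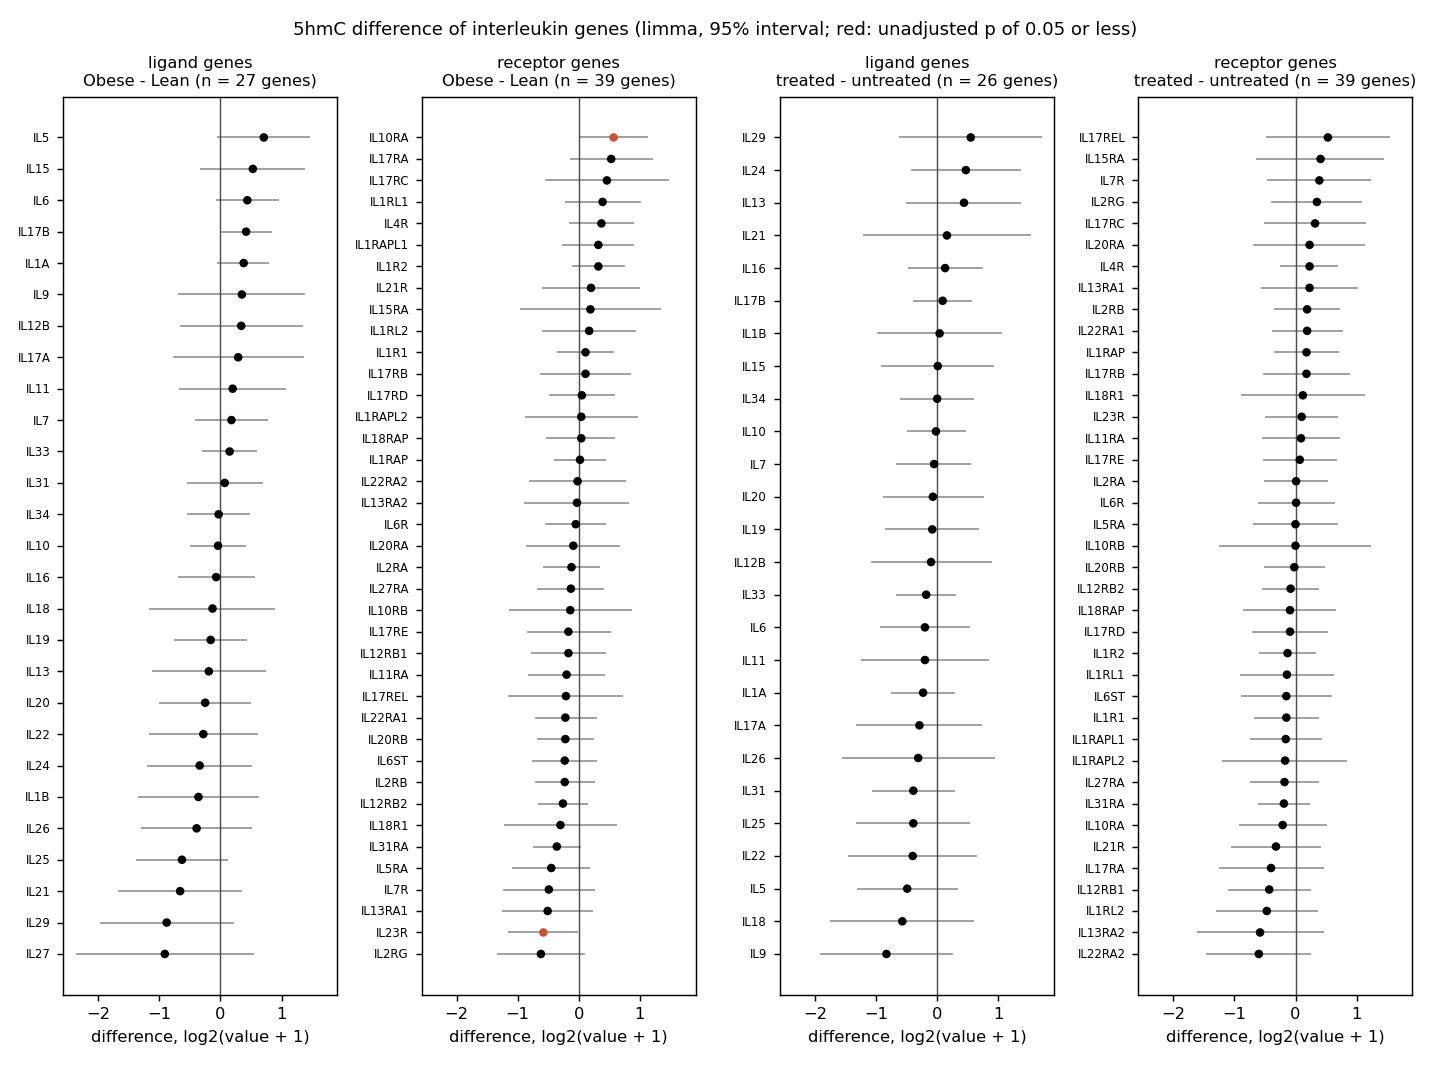
Difference of log2(value + 1) between groups (horizontal axis) for the ligand and receptor genes tested with limma, each class apart. Panels give Obese minus Lean and vitamin-C-treated minus untreated Obese-MSCs. Points are estimates and lines 95% intervals, with genes whose p-value before adjustment was 0.05 or less in red. IL18BP, which passed before adjustment in the vitamin-C comparison, and IL4I1 are not drawn. Nearly all intervals include 0, and the red points are IL10RA and IL23R in the Obese and Lean panel of receptors.

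IL23R encodes the private receptor chain for interleukin-23, the cytokine that maintains interleukin-17-producing T cells. It had 22.7, 18.0 and 20.04 normalized counts in Obese-MSCs and 30.5, 36.7 and 25.7 in Lean-MSCs. All 3 Obese libraries lay below all 3 Lean libraries. The means were 20.2 ± 2.36 and 31.0 ± 5.53 (SD, n = 3 each), a ratio of 0.653 and a log2 ratio of -0.62. The unadjusted p-value of the two-sided per-gene test was 0.0362, limma gave an adjusted p-value of 0.730, and the exact permutation test gave 0.1, the smallest p that 20 arrangements allow. The ratio stayed below 1 without each library in turn, with log2 values from -0.73 to -0.48. The call itself was kept only without Lean replicate 9, and was lost without Obese replicate 1, 2 or 3 or Lean replicate 7 or 8, when the log2 ratios were -0.71, -0.54, -0.61, -0.63 and -0.48. The SD among Obese libraries was below the 4.50 that counting alone would give a gene of this mean if 1 normalized count were 1 read.

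IL23R lies on chromosome 6 (Sscrofa11.1, chr6:145337765-145401909), 45.4 kb from IL12RB2, which encodes a chain of the interleukin-12 receptor. IL12RB2 had 91.6, 92.0 and 99.9 normalized counts in Obese-MSCs and 116, 105 and 118 in Lean-MSCs. The Obese libraries were again all lower, but the ratio of 0.835 (log2 ratio -0.26) did not reach the fold threshold, and the exact permutation p was 0.1. IL12RB1, the chain that both receptors share, had 19.1 ± 3.05 in Obese- and 21.7 ± 4.18 in Lean-MSCs, with overlapping libraries. IL12B, which encodes the subunit common to interleukins 12 and 23, had 6.71 ± 3.79 and 4.54 ± 0.581 and also overlapped. IL23A, for the other subunit of interleukin-23, was under 3 normalized counts on average in both groups.

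Groups that did not overlap were found for 7 of the 76 genes, or 9.21%, against 11.8% of all genes. Besides IL23R and IL12RB2 these were the receptor genes IL2RG and IL10RA and the ligand genes IL21, IL5 and IL17B. The 3 higher in Obese-MSCs were IL10RA, IL5 and IL17B, and the other 4 were lower. IL23R, IL2RG, IL10RA, IL21 and IL5 had in addition a ratio past the fold threshold, as did 8.60% of all genes. For each of them the exact permutation p was 0.1, and among all genes 5.70% did not overlap with Obese-MSCs higher and 6.06% with Obese-MSCs lower.

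IL2RG, on the X chromosome, encodes the common gamma chain used by the receptors for interleukins 2, 4, 7, 9, 15 and 21. It had 9.40, 6.60 and 9.37 normalized counts in Obese-MSCs and 12.5, 16.9 and 11.3 in Lean-MSCs, a log2 ratio of -0.68 (adjusted p = 0.779, limma). Of the alternatives run, it met the criteria only when the per-gene test was made on log2(value + 1). IL21, for a ligand of a receptor with that chain, had 2.22, 3.80 and 3.52 in Obese- against 6.73, 3.97 and 6.16 in Lean-MSCs, and its nearest libraries, 3.80 and 3.97, were barely apart. Its log2 ratio was -0.82, and without Lean replicate 8 it was -1.02 and met the criteria. Other receptor chains that pair with the common gamma chain had overlapping groups: IL7R had 16.0 ± 7.62 in Obese- and 21.8 ± 7.34 in Lean-MSCs, IL2RB 49.4 ± 8.96 and 57.6 ± 4.53, IL4R 96.5 ± 18.4 and 77.0 ± 29.8, and IL21R 10.96 ± 0.386 and 10.3 ± 5.81.

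IL10RA, the ligand-binding chain of the interleukin-10 receptor, had 49.3, 87.5 and 45.1 normalized counts in Obese-MSCs and 35.2, 43.7 and 38.0 in Lean-MSCs. Obese replicate 2 stood far above the others, and the lowest Obese library was only just above the highest Lean library. The log2 ratio was 0.64 and fell as low as 0.28 when 1 library was left out, and the adjusted p-value of limma was 0.731. Its partner IL10RB showed no such order, with 88.9, 12.97 and 79.5 in Obese-MSCs and 36.5, 45.7 and 75.9 in Lean-MSCs. The ligand gene IL10 was nearly level at 83.8 ± 9.59 and 87.2 ± 17.7.

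IL17B, for a member of the interleukin-17 family, had 113, 121 and 107 normalized counts in Obese-MSCs and 74.8, 89.4 and 91.4 in Lean-MSCs. All Obese libraries were higher, with little spread, and its ratio of 1.34 was just short of the fold threshold although the two-sided per-gene p-value was 0.0127 (exact permutation p 0.1). The log2 ratio ranged from 0.33 to 0.47 without each library. IL5, for the growth factor of eosinophils, had 11.5, 11.3 and 16.3 in Obese- against 8.99, 8.94 and 5.16 in Lean-MSCs, a log2 ratio of 0.76 (adjusted p = 0.762, limma). Of the alternatives run, it met the criteria only after quantile normalization. Its neighbours on chromosome 2 did not share this order, IL13 having 3.52, 14.4 and 6.02 in Obese-MSCs and 6.85, 8.94 and 8.22 in Lean-MSCs and IL4 staying under 3 normalized counts on average in both groups.

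**Figure D3:**
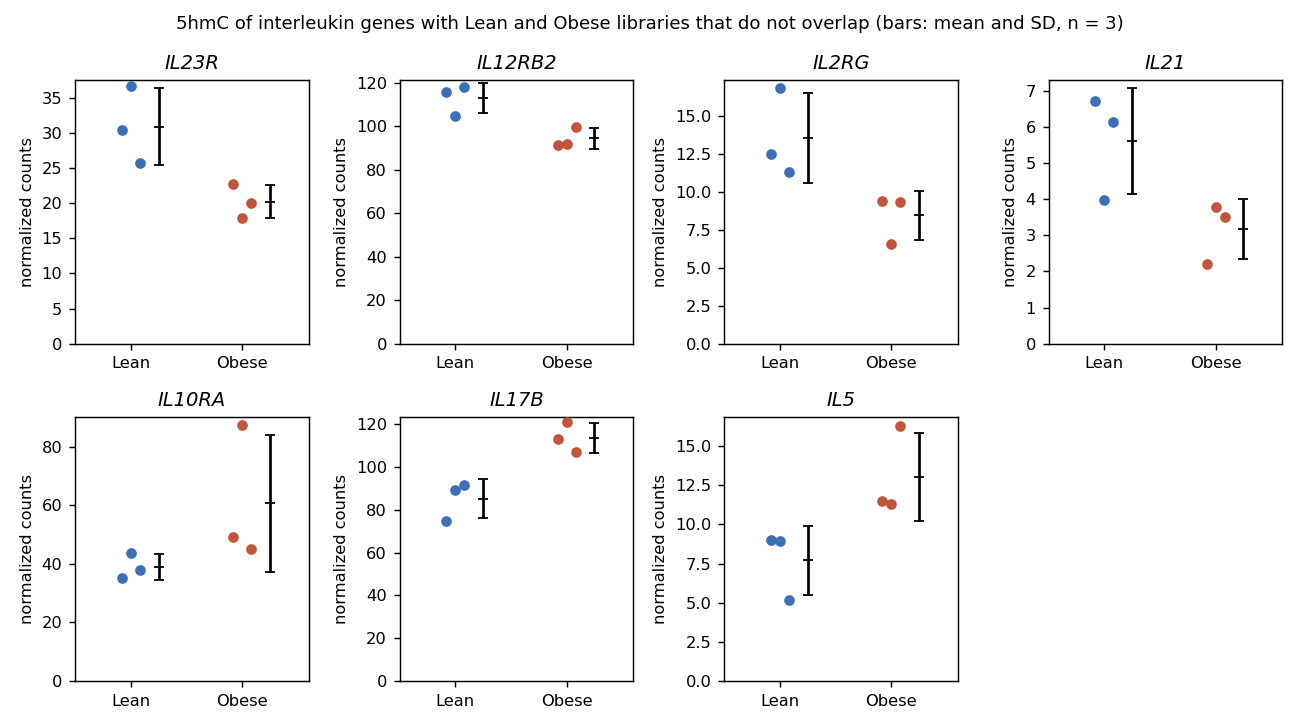
Normalized counts of 5hmC (vertical axes, from 0) in the 3 Lean and 3 Obese libraries for the 7 interleukin genes whose groups did not overlap; coloured points are libraries and black bars are means with SD. IL23R, IL12RB2, IL2RG and IL21 are lower in Obese-MSCs and IL10RA, IL17B and IL5 higher, and the gap between groups is narrowest for IL21 and IL10RA.

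Other ligand genes that MSCs are known for overlapped between groups. IL6 had 158, 233 and 101 normalized counts in Obese- and 98.6, 116 and 128 in Lean-MSCs. Its ratio of 1.43 was past the fold threshold, but Obese replicate 3 lay below 2 of the Lean libraries, and the two-sided per-gene p-value was 0.274 (exact permutation p 0.3). IL1A had 331, 216 and 237 in Obese-MSCs against 195, 158 and 251, a log2 ratio of 0.38, with an overlap through Lean replicate 9. IL15, which supports natural killer cells, had 9.26, 34.3 and 34.9 against 21.3, 10.9 and 15.4, and its log2 ratio rose from 0.72 to 1.12, meeting the criteria, without Obese replicate 1. None of these 3 genes separated the groups. The alarmin IL33 had 134 ± 31.1 and 119 ± 20.9, the macrophage growth factor IL34 had 92.1 ± 23.7 and 94.0 ± 23.8, and the lymphocyte growth factor IL7 had 80.2 ± 39.6 and 66.8 ± 14.2. IL18, for an inflammasome product, had 4.82 ± 2.78 and 4.90 ± 0.754, and its binding protein gene IL18BP had 10.8, 16.2 and 6.17 against 9.20, 13.9 and 15.4. IL17F had the lowest log2 ratio of any member, -2.17, on means of 0.930 and 4.18 that are too small to place it.

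Among receptor genes of the interleukin-6 family, IL31RA, for the receptor of the itch cytokine interleukin-31, had 166, 143 and 147 normalized counts in Obese-MSCs and 223, 207 and 162 in Lean-MSCs. The groups overlapped by a single library, Lean replicate 9, and the log2 ratio was -0.37 (adjusted p = 0.762, limma). IL6ST, which encodes the common signalling chain gp130 and lies 29.9 kb from IL31RA, had 33.9, 50.4 and 33.2 against 48.5, 41.7 and 46.2, a log2 ratio of -0.22, with an overlap through Obese replicate 2. IL6R had 60.9 ± 17.3 and 61.7 ± 3.46, and IL11RA 15.8 ± 2.46 and 18.4 ± 3.16.

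The interleukin-1 receptor genes form a cluster on chromosome 3. The 6 genes from IL18RAP to IL1R2 had log2 ratios of 0.12 (IL18RAP), -0.11 (IL18R1), 0.50 (IL1RL1), 0.23 (IL1RL2), 0.12 (IL1R1) and 0.32 (IL1R2), and the groups of each overlapped. IL1R2, the decoy receptor that binds interleukin-1 without signalling, came closest to separation, with 128, 116 and 98.0 in Obese-MSCs and 91.6, 80.4 and 101 in Lean-MSCs. IL1R1, the signalling receptor, had 109, 74.8 and 113 against 92.7, 105 and 75.02. IL1RAP, the accessory chain encoded elsewhere, had 122 ± 20.8 and 119 ± 7.85, and IL17RA, the common chain of the interleukin-17 receptors, had 21.6 ± 6.68 and 14.5 ± 3.84.

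Neighbouring genes were then set beside each other. In all, 33 members lay in 13 clusters with less than 500 kb between neighbours, and IL12RB2 with IL23R was the only such group in which more than 1 gene had groups that did not overlap. The interleukin-10 relatives on chromosome 9 had log2 ratios of -0.06 (IL10), -0.13 (IL19), -0.24 (IL20) and -0.50 (IL24), with overlapping groups throughout. The adjacent receptor genes IL17RE and IL17RC, 1.33 kb apart on chromosome 13, had log2 ratios of opposite sign, -0.27 and 0.44.

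Several interleukin genes varied widely among the libraries of one group. Of the members with a mean above 20 normalized counts in Obese-MSCs, 4 of 11 ligand and 4 of 23 receptor genes had a highest library at least 2 times the lowest, against 14.8% of all genes. In Lean-MSCs these were 1 of 10 ligand and 3 of 24 receptor genes, against 10.4% of all genes. IL10RB varied most in Obese-MSCs, 6.86-fold, through its value of 12.97 in replicate 2. IL11 had 80.0, 79.8 and 19.8 in Obese-MSCs, low in replicate 3, and 71.7, 27.8 and 42.1 in Lean-MSCs. Obese replicate 3 was the high library for IL7 (126, beside 56.1 and 58.6), for IL1RL1, which encodes the receptor of interleukin-33 (68.5, beside 31.3 and 32.1), and for IL5RA (46.4, beside 27.0 and 17.9). For IL18RAP, a chain of the interleukin-18 receptor, Obese replicate 1 was high, with 95.2 beside 48.2 and 45.2. These genes were singled out for their spread after their values were seen, and no single library was the extreme one throughout.

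**Figure D4:**
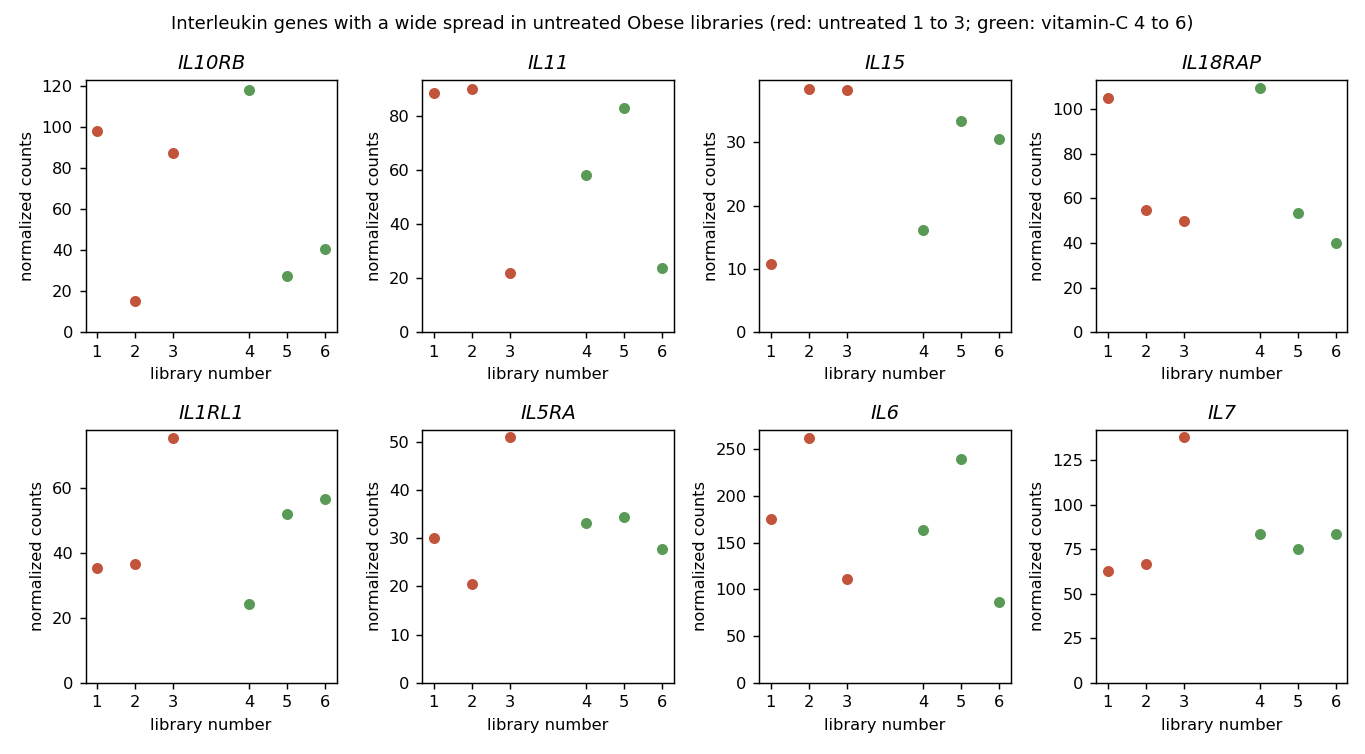
Normalized counts of 5hmC (vertical axes, from 0) in untreated Obese libraries 1 to 3 (red) and vitamin-C-treated Obese libraries 4 to 6 (green), from the table of treated and untreated cells, for the 8 interleukin genes with a mean above 20 and at least a 2-fold range in the Obese libraries of the other table. IL10RB is high in untreated 1 and 3 and treated 4 and low in untreated 2, and IL7 is high only in untreated 3.

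Vitamin-C-treated and untreated Obese-MSCs were compared to ask whether treatment was accompanied by another 5hmC level at these genes. The untreated Obese libraries are those of the preceding comparison, normalized anew. By the study's criteria 0 of the 76 genes were called, against 1.92% of all genes, 1.11% as high and 0.806% as low. Limma, over 15194 genes, passed 0 of the 67 interleukin genes tested after adjustment, as it did 0 of all genes, and IL18BP alone passed before adjustment, against 0.974% of all genes. Groups did not overlap for 2 of the 76 genes, or 2.63%, against 5.91% of all genes, and both were lower after treatment. Among all genes 2.67% did not overlap with treated cells lower and 3.24% with treated cells higher, and 4.08% also passed the fold threshold, as IL22RA2 did.

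The median log2 ratio of treated to untreated cells was -0.10 for ligand genes and -0.03 for receptor genes, beside 0.01 for all genes. The ligand median was -0.22 without treated replicate 4 and 0.02 without untreated replicate 1, and the receptor median ranged from -0.06 to 0.06 without each library, so neither kept its sign. Of 29 ligand genes with a ratio 10 lay above 0 and 19 below, and of 40 receptor genes 18 lay above and 22 below. The limma intervals reached 0.914 and 0.716 to either side in the median on the log2 scale, or 1.88-fold and 1.64-fold, so that smaller differences could mostly not be seen.

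The genes that did not overlap were IL22RA2, for a soluble receptor that neutralises interleukin-22, and IL21R, for the receptor of interleukin-21. IL22RA2 had 6.04, 4.59 and 7.20 normalized counts in treated cells and 8.59, 7.56 and 12.7 in untreated cells, a log2 ratio of -0.69 (exact permutation p 0.1). IL21R had 8.05, 9.24 and 11.7 in treated and 12.1, 12.9 and 11.7 in untreated cells, with its nearest libraries equal after rounding and a log2 ratio of -0.34. IL18BP had 17.1, 15.6 and 46.1 in treated and 12.1, 18.1 and 6.91 in untreated cells. Its groups overlapped, and its log2 ratio of 1.09 rested on treated replicate 6 and untreated replicate 3, ranging from 0.40 to 1.47 without each library (adjusted p = 1.00, limma).

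For the genes that had stood apart between Obese- and Lean-MSCs, the groups with and without vitamin-C overlapped. IL23R had 23.1, 24.1 and 25.1 in treated and 25.1, 20.4 and 22.1 in untreated cells, a log2 ratio of 0.10 with a limma 95% interval from -0.50 to 0.70. IL2RG had 13.1, 10.1 and 13.5 against 10.4, 7.56 and 10.3, overlapping by a single library, treated replicate 5, with a log2 ratio of 0.38. IL12RB2 had 115, 100.0 and 85.8 against 102, 104 and 110.0. The groups of IL10RA, IL17B, IL5 and IL21 also overlapped, with log2 ratios of -0.20, 0.11, -0.44 and 0.62. When treated replicates 4, 5 and 6 were matched with untreated replicates 1, 2 and 3, the order in which the libraries deviated together and which the labels do not give, 8 of the 76 genes were higher after treatment in all pairs and 10 lower, or 23.7% against 22.1% of all genes (10.9% higher and 11.2% lower). IL2RG was among the higher ones. With these pairs as a block, limma passed 0 genes after adjustment, and before it 1 member, IL18BP, against 2.45% of all genes. Because the untreated libraries serve in both comparisons, the ratios of the 2 comparisons are not independent and are only set side by side.

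Among the ligand genes, IL6 had 164, 240.1 and 86.4 normalized counts in treated and 176, 262 and 111 in untreated cells. The ranges covered each other almost whole, and the log2 ratio was -0.16. IL1A had 349, 228 and 181 against 368, 245 and 260.5, and IL33 had 155, 110.1 and 125 against 148, 117 and 182. IL7 had 83.5, 74.9 and 83.3 in treated cells, between the lower pair and the high library of untreated cells (62.8, 66.6 and 138). IL31RA, with 165, 147 and 134 against 184, 162 and 162, IL6ST, with 41.8 ± 20.6 against 43.7 ± 11.3, and IL4R, with 125 ± 10.7 against 108 ± 20.4, overlapped as well.

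The signalling partners of the interleukins were represented by a list of 46 genes for kinases, STAT factors, adaptors, inhibitors and related cytokines, of which 44 were in the tables. Between Obese- and Lean-MSCs the criteria called 0 of them, against 4.50% of all genes, and their median log2 ratio was 0.12, beside 0.01 for all genes. Groups did not overlap for 9 of them, 5 higher and 4 lower in Obese-MSCs, or 20.5% against 11.8% of all genes. Limma passed 0 of 38 after adjustment, and 5 passed before adjustment, or 13.2% against 6.81% of all genes. JAK3, the kinase bound to the common gamma chain, had 21.7, 18.9 and 26.9 normalized counts in Obese-MSCs and 30.7, 30.8 and 49.2 in Lean-MSCs, a log2 ratio of -0.71 (adjusted p = 0.703, limma). It was lower in all Obese libraries, like IL2RG. The 5 genes higher in all Obese libraries were STAT5B, LIF, IRAK3, GAB1 and SIGIRR. SIGIRR, at means of 2.26 in Obese- and 0.714 in Lean-MSCs, lay under 3 normalized counts in both groups. So did TSLP, 1 of the 4 lower genes, at 0.324 and 2.14. STAT5B, for a STAT factor, had 19.2, 25.6 and 25.8 in Obese- and 13.7, 18.9 and 18.5 in Lean-MSCs. CSF2RB, the common chain of the receptors for interleukins 3 and 5, had 16.2, 19.0 and 17.7 against 28.3, 37.7 and 21.6, a log2 ratio of -0.73. LIF, for a cytokine that signals through gp130, had 238, 274 and 171 against 112, 169 and 166, a log2 ratio of 0.61. Beside JAK3, CSF2RB and LIF, limma before adjustment passed STAT2, with means of 16.2 and 32.5 and all Obese libraries lower. It also passed OSM, for another gp130 cytokine, with a log2 ratio of 0.88 and overlapping groups. After vitamin-C the criteria called 1 of 44 genes, or 2.27% against 1.92% of all genes. This was TSLP, whose means of 2.84 and 0.358 are both under 3 normalized counts, and the median log2 ratio of the list was 0.02, beside 0.01 for all genes.

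Markers of cell types were looked at on the same 5hmC scale, which does not show whether a gene is expressed. The MSC markers NT5E, THY1 and ENG had values in every library. Their sum ranged from 94.8 to 123 in Obese-MSCs and from 80.1 to 88.4 in Lean-MSCs, without overlap, and 0 of the 3 met the criteria. ENG, with 52.7, 67.4 and 51.95 against 51.7, 37.7 and 31.9, was higher in every Obese library, while NT5E and THY1 overlapped. CD14, a monocyte marker that MSCs lack, was listed at 0 in all Lean libraries and at 0.650 to 4.49 in Obese libraries. Its Obese mean of 2.02 was under 3 normalized counts. The other markers that MSCs should lack overlapped between groups. CD34 had 18.7 ± 4.72 in Obese- and 17.8 ± 3.92 in Lean-MSCs, and PTPRC had 46.9 ± 10.04 and 59.3 ± 10.6. The sum of these 3 markers ranged from 60.6 to 71.6 in Obese- and from 66.9 to 89.4 in Lean-MSCs, with overlap. Of 4 leukocyte markers 1, CD3E, was low in Obese-MSCs by the criteria, with 32.0, 21.7 and 35.1 against 48.6, 52.6 and 47.3. The sum over the 4 markers ranged from 153 to 229.6 in Obese-MSCs and from 178 to 208 in Lean-MSCs, so that the sums overlapped. The part of such cells in the values of IL23R and IL2RG, genes that lymphocytes use, was not tested, nor was that of the higher sum of MSC markers in any difference between Obese- and Lean-MSCs. Between treated and untreated cells the sums of MSC markers overlapped, from 86.5 to 125 and from 104 to 139.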

How the data were processed

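The authors captured 5hmC-bearing DNA from swine MSCs with an antibody, aligned the paired reads to susScr 11.1 with Bowtie 2 (2.3.3.1), removed duplicates with Picard (1.67), summed exonic reads by gene using HTSeq (0.9.1) and processed them with edgeR (3.28.1). The strand setting and the gene annotation are not given in the sources used here. The deposited signal is a table of fractional normalized values per gene that are never negative and not divided by length, one table for each comparison. Whole reads could not be recovered for all libraries, so no count test was run. The tables hold no read totals, so true depth is unknown, and 645 values of the second table within rounding error of 0 were taken as 0.

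Libraries were grouped by the submitters' labels, with 3 in each group, and tests were made within a table. The criteria were those the study states, although its published counts of called genes were not fully reproduced. Limma (3.58.1, R 4.3.3) was fitted with a trend to log2(value + 1) over the upper 80% of genes by mean, with Benjamini-Hochberg adjustment over all genes fitted, and its differences are on the log2(value + 1) scale, which understates those of low genes. Log2 ratios of single genes are of group means with no pseudocount. Exact permutation tests were two-sided. Python 3.11.15 with pandas 2.3.3, scipy 1.17.1 and matplotlib 3.10.9 was used, and the steps were tested on simulated data. Positions and spans are from RefSeq for Sscrofa11.1, where all 76 members matched by symbol.

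The members and lists were chosen with earlier results of these data known. Genes named were those past the criteria, those with groups that did not overlap and a ratio past 1.4 or 0.7, the 5 highest means of each class, and 18 well-known members, of which IL1RN was not analysed here. Others, namely IL21R, the partner chains and neighbours of named genes, IL17F, and the genes given for their spread or level per kb, were chosen after their values were seen. Alternatives were other scales, variances, thresholds, pseudocounts, filters and normalizations, each library left out, and, chosen after seeing the data, blocks for each matching of treated with untreated libraries and the signs of the differences within one of them.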

Additional observations from a re-analysis of the deposited data

How the results depend on the processing

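No alternative turned the direction of IL23R, the only member called at first. Between Obese- and Lean-MSCs, the count of ligand genes past the criteria rose from 0 to 1 after quantile normalization (IL5), and that of receptor genes, 1 at first, was 2 with the test on log2(value + 1) (IL23R and IL2RG), 0 with unequal variances and 0 at a p-value threshold of 0.01. Leaving out 1 library at a time gave 0 to 1 ligand genes (IL15 without Obese replicate 1, IL21 without Lean replicate 8, IL17F without Lean replicate 9) and 0 to 1 receptor genes. The receptor gene was IL23R only without Lean replicate 9, and otherwise IL20RA without Obese replicate 2, IL5RA without Obese replicate 3 and IL21R without Lean replicate 8. IL20RA changed sign there, from a log2 ratio of 0.06 with all libraries to -0.56. The median log2 ratio of receptor genes then ranged from -0.08 to 0.06. For vitamin-C, leaving out 1 library gave 0 to 1 ligand genes (IL31 without treated replicate 4, IL24 without treated replicate 5) and a receptor median from -0.06 to 0.06. Of the results over each class, 64 stayed within 1.5 times or the spread between libraries and 4 moved, and with a library left out 61 stayed and 11 moved. The count of genes with an adjusted p-value of 0.05 or less in limma was 0 in each class under every pseudocount, filter, normalization and left-out library run. The planned median with low genes left out was the value reported, so the median with them was run in its place.

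The groups share no replicate number, so the labels give no pairing, and all fits with a pairing were chosen after seeing the data. Treated and untreated libraries can be matched in 6 ways. With a replicate block for any one of them, limma passed 0 of 26 ligand and 0 of 39 receptor genes after adjustment, and 0 of each before it. One matching, treated 4, 5 and 6 with untreated 1, 2 and 3, is the one in which the libraries deviated together, and its block passed 2.45% of all genes before adjustment, against 0.974% without a block, and 0 of all genes after it. As this matching was picked by likeness in the same values, a smaller residual spread was built in. The rise before adjustment therefore says nothing on whether the pairing is right. Depth limits most of the ligand genes, 19 of 34 having a mean under 10 normalized counts, and with 3 libraries a group the exact permutation test cannot go below 0.1.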

Other observations

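The untreated and treated Obese libraries were also set beside each other gene by gene. For 36 interleukin genes with a mean above 20 normalized counts, the deviation of each library from its group mean on the log2 scale was correlated across genes, which are not independent replicates. Treated replicate 4 went with untreated replicate 1 (Pearson r = 0.64), treated replicate 5 with untreated replicate 2 (r = 0.77) and treated replicate 6 with untreated replicate 3 (r = 0.48), while the other 6 pairs lay between -0.44 and -0.11. Deviations from a group mean sum to 0 for each gene, so positive values in some pairs push the remaining ones below 0. Over 7485 genes the same 3 pairs had r of 0.44, 0.59 and 0.32. The labels do not say that these libraries share an animal.

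The likeness can be seen in single genes with a wide spread, in values from the table of treated and untreated cells. IL10RB had 98.1, 15.3 and 87.4 normalized counts in untreated replicates 1, 2 and 3 and 118, 27.5 and 40.9 in treated replicates 4, 5 and 6. Its highest and lowest libraries matched, but treated replicate 6 lay well below untreated replicate 3, at a log2 ratio of -1.09. IL11 had 88.5, 89.9 and 21.9 in untreated and 58.3, 82.7 and 23.8 in treated cells. IL6 had 176, 262 and 111 in untreated and 164, 240.1 and 86.4 in treated cells, and IL18RAP 105, 54.8 and 49.8 beside 109.6, 53.6 and 40.0. IL7 and IL5RA departed from this order, IL7 being high in untreated replicate 3, at 138, with 83.3 in treated replicate 6.

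Within the matching 4 with 1, 5 with 2 and 6 with 3, which the data and not the labels give, the genes higher after treatment in all pairs included IL2RG, with log2 ratios within pairs of 0.33, 0.42 and 0.39 (block limma log2 change 0.35 ± 0.35 SE). IL7R, for the interleukin-7 receptor chain that pairs with it, had 0.49, 0.29 and 0.46. Other chains that pair with it did not all share this sign. IL2RB had 0.36, 0.09 and 0.13, IL4R had -0.14, 0.21 and 0.61, and IL21R had -0.59, -0.48 and -0.00. Members of the same sign in all pairs made up 23.7%, near the 22.1% of all genes. Among the lower ones were IL6, with -0.10, -0.13 and -0.36, IL1A, with -0.07, -0.10 and -0.53, IL31RA, with -0.16, -0.14 and -0.27, and IL22RA2, with -0.51, -0.72 and -0.81. IL18BP, which alone passed before adjustment in the block fit, had pairs of differing sign, with 0.50, -0.22 and 2.74. The adjusted p-value of limma with these pairs as a block was 1.00 for every member tested. These genes were chosen after their values were seen.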
